A study of Mus musculus with 6 samples.

Results

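Tubulin genes were followed in mouse embryonic stem cells with and without HOXB4. The set is 10 genes, Tubb3, Tubb2a, Tubb2b, Tubb4b, Tubb5, Tubb6, Tuba1a, Tuba1b, Tuba4a and Tubg1, of the 30702 genes that the array table resolves. Its members were chosen by gene name around Tubb3, and Tubb3 was picked with its HOXB4 minus control difference known from an earlier analysis of the same arrays. The question asked of the set is whether tubulin isotypes shifted as a group or Tubb3 alone. A feature was taken where its annotation names exactly 1 gene, and the brightest by mean over the 6 arrays where several do. This gave 9 members with 1 feature each. Tuba1b has none, because its feature also names the pseudogene Gm5620. The differences of Tubb3 and its relatives between the groups are therefore given as descriptions. The genes were part of the fit over all genes, and no p-value is given for them.

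The cells were of an embryonic stem cell line that the labels call iRunx, grown as embryoid bodies, which are aggregates in which germ layers form, and taken at day 4. The first group, HOXB4, carried a retrovirus with tdTomato and HOXB4, a Hox transcription factor known for enlarging blood progenitor pools. The second group, control, was sorted without such expression. Both were sorted by flow cytometry as Flk1+ cells negative for what the labels spell PDFGRα, read here as PDGFRα, a fraction that holds endothelial and blood precursors. Each group had 3 arrays from experiments the series text calls independent, and all 6 share the iRunx background. The promoter in the retrovirus, whether iRunx is 1 clone, whether a Runx gene was induced and whether controls carried an empty vector were stated by none of the sources at hand. Kdr, the gene of Flk1, lay between 13.68 and 14.33 on the log2 scale in all 6 arrays. The feature shared by Pdgfra and Mir7025 stood at 5.95, 7.15 and 6.04 in HOXB4 1 to 3, against 6.67, 6.47 and 6.89 in controls 1 to 3. The feature shared by Hoxb4 and Mir10a stood at 4.93, 4.24 and 4.74 in HOXB4 1 to 3, against 4.63, 4.96 and 4.40 in controls 1 to 3. It was lowest in HOXB4 2 and did not separate the groups. Whether its probes can read the retroviral transcript was not tested, so these arrays give no check of the HOXB4 label.

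Microtubules are hollow polymers of heterodimers of alpha- and beta-tubulin, and both subunits are encoded by several genes, the isotypes. Gamma-tubulin is not part of the polymer wall but sits in ring complexes from which microtubules are nucleated. Tubb3 encodes the class III beta isotype, which is abundant in neurons and widely used as a neuron marker, although it is also known from some other cells. Tubb2a and Tubb2b are further isotypes enriched in the nervous system, while Tubb5 and Tubb4b are found in most dividing cells.

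Promoter windows from RefSeq (build GRCm38.p6, 250 bases before to 50 after the annotated start) were matched for 7 of the 10 genes, and 4 beta isotypes are shown, Tubb3 and Tubb2a with larger differences beside Tubb4b and Tubb5 with smaller ones; Tubb2b was not matched. The 4 windows lie at chr8:123411303-123411602 (plus strand), chr13:34077959-34078258 (minus), chr2:25224653-25224952 (minus) and chr17:35838252-35838551 (minus), each written 5′ to 3′ along its gene. Capitals mark matches on either strand to the TATA box (TATAAA), the box bound by NF-Y (CCAAT), the box bound by Sp1 (GGGCGG), the ETS core (CGGAAG), a homeodomain core (TAATTA), the HOX-PBX motif (TGATTNAT), the E-box (CACGTG) or the first part of the RE1 element bound by REST (TTCAGCACC).
Tubb3: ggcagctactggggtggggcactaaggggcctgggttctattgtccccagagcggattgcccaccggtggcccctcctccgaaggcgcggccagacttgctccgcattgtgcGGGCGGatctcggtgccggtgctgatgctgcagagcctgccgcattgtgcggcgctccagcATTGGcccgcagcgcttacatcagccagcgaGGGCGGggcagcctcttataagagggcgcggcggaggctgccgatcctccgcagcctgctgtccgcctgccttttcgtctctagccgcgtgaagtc
Tubb2a: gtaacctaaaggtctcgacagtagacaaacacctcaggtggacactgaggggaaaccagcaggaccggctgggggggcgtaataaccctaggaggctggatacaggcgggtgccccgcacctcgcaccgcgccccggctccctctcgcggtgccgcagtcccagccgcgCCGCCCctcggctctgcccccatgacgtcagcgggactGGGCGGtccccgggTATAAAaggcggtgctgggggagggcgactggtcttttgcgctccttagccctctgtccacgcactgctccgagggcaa
Tubb4b: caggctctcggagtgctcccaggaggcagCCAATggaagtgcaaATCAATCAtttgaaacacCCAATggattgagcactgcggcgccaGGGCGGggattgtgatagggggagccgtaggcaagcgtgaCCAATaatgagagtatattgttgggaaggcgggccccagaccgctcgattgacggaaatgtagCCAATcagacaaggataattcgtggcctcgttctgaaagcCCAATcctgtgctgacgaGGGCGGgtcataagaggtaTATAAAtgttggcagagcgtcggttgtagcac
Tubb5: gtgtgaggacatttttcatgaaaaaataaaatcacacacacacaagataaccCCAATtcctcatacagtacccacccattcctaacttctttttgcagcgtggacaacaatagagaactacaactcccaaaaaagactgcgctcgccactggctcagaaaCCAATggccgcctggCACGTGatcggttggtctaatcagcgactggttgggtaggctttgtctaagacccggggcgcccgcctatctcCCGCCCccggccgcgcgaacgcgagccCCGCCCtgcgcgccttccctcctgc
GGGCGG occurs 2 times in each of the 4 windows, and 35.6% of all 32817 windows hold it. CCAAT, in 37.4% of all windows, occurs 1 time in the Tubb3 window, 5 times in that of Tubb4b and 2 times in that of Tubb5. TATAAA, in 13.6% of all windows, occurs in the Tubb2a and Tubb4b windows. The Tubb2a match begins at position -29 from the annotated start, and the Tubb4b match at position 19, after the start. A single match to TGATTNAT stands in the Tubb4b window (3.22% of all windows), and 1 to CACGTG in the Tubb5 window (7.15%). CGGAAG (16.9%), TAATTA (5.3%) and TTCAGCACC (0.372%) have no match in these 4 windows. The matches are a description of these windows and not binding sites.

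Among the beta isotypes, Tubb3 and, less far, Tubb2b and Tubb2a averaged higher in HOXB4 cells, with HOXB4 1 and 3 high and HOXB4 2 among the controls. Tubb3 (chromosome 8, 123411553 to 123422015) had log2 expression of 10.20, 8.25 and 10.38 in HOXB4 1 to 3, against 6.90, 7.73 and 8.33 in controls 1 to 3. HOXB4 1 and 3 lay above every control, while HOXB4 2 lay 0.09 below control 3, so the groups overlap. The means were 9.61 ± 1.18 in HOXB4 cells and 7.65 ± 0.72 in controls (SD, n = 3 each), a difference of 1.95 (limma moderated SE 0.62) or 3.87-fold. Of the 30702 genes, 12 had a larger absolute difference and 5 a larger difference upwards. The Tubb3 difference was 2.63 without HOXB4 2, and 1.57 to 2.29 when any other array was left out.

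**Figure D1:**
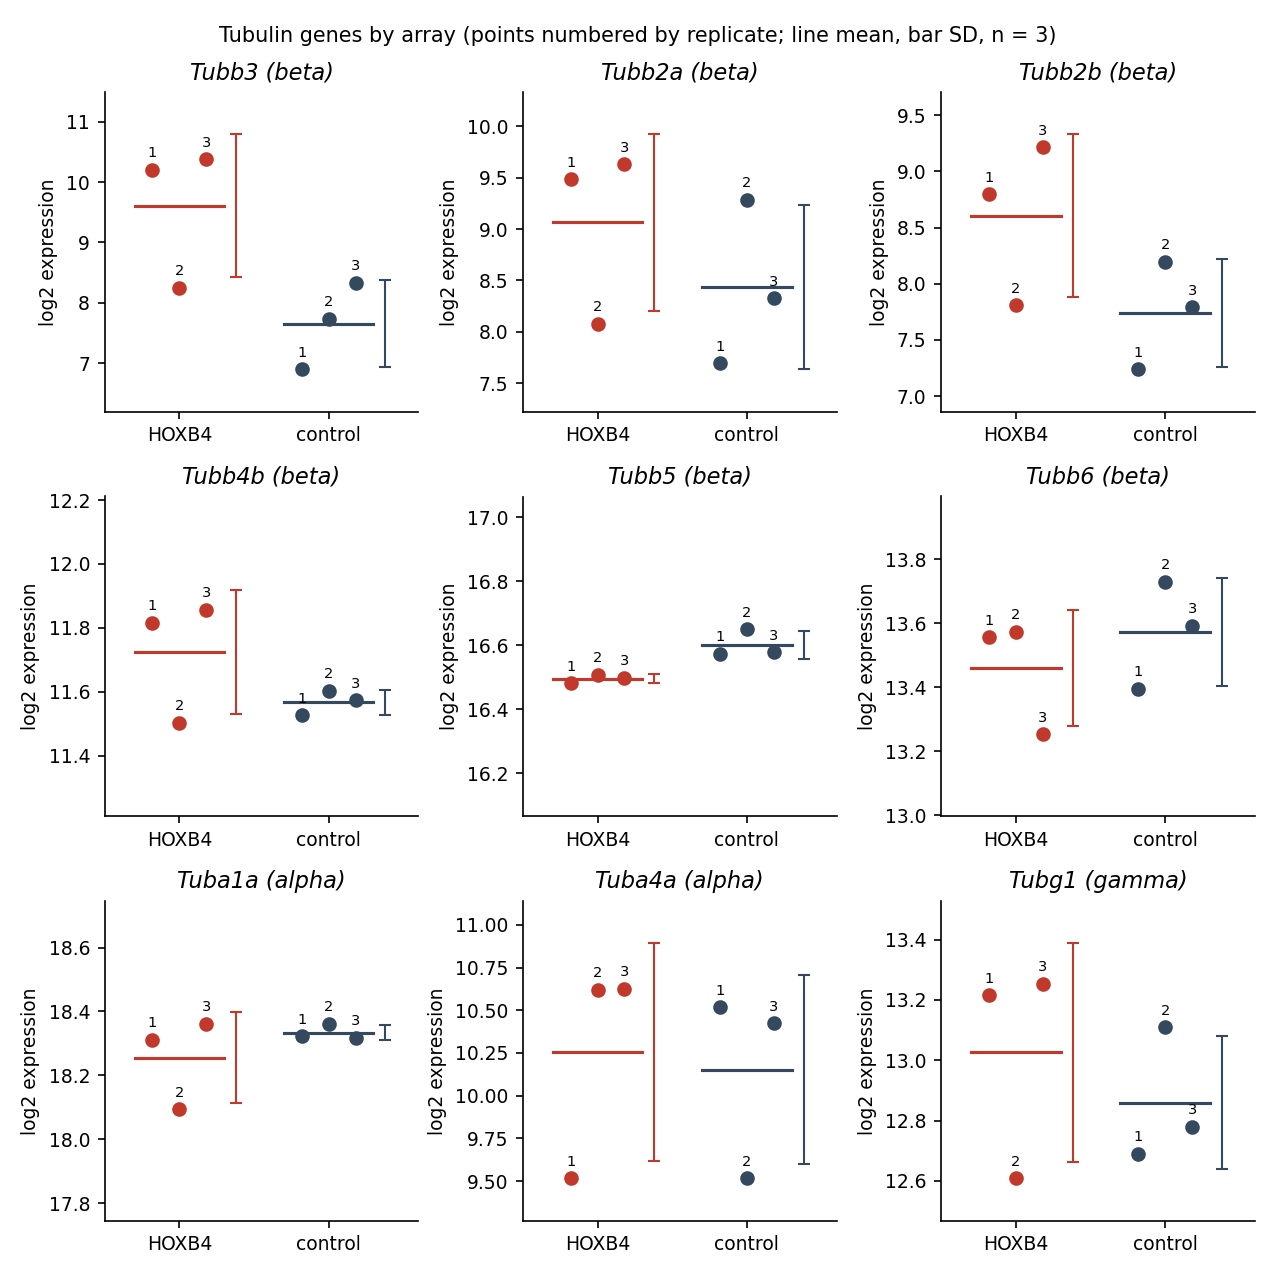
Log2 expression of each of the 9 measured tubulin genes in HOXB4 arrays (left, red) and control arrays (right, dark), with points numbered by replicate, the mean as a line and the SD as a bar (n = 3). The vertical axes span at least 1 log2 unit and differ between panels; Tubb3 runs from 6.90 to 10.38, while Tubb5 stays between 16.48 and 16.65.

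Tubb2b (chromosome 13, 34127008 to 34130354) stood at 8.79, 7.81 and 9.22 in HOXB4 1 to 3, against 7.24, 8.19 and 7.79 in controls 1 to 3. HOXB4 1 and 3 were again the highest arrays, and HOXB4 2 lay below control 2. Its means of 8.61 ± 0.72 in HOXB4 cells and 7.74 ± 0.48 in controls (SD, n = 3 each) differ by 0.86 (SE 0.39), or by 0.56 without HOXB4 3. The neighbouring gene Tubb2a (chromosome 13, 34074278 to 34078008) stood at 9.49, 8.08 and 9.63 in HOXB4 1 to 3, against 7.69, 9.28 and 8.33 in controls 1 to 3. Control 2 came close to HOXB4 1 and 3, and HOXB4 2 lay between controls 1 and 3. The means were 9.07 ± 0.86 in HOXB4 cells and 8.43 ± 0.80 in controls (SD, n = 3 each), and the difference of 0.63 (SE 0.53) depends on which array is counted. It was 0.42 without HOXB4 1, 1.12 without HOXB4 2, 0.35 without HOXB4 3, 0.26 without control 1 and 1.06 without control 2. Coding sequences of these isotypes are closely related, and how far probes of the Tubb2a and Tubb2b features read each other's transcripts was not tested.

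The remaining beta isotypes differed little. Tubb4b (chromosome 2, 25222158 to 25224702), a broadly expressed isotype also used in cilia, stood at 11.82, 11.50 and 11.86 in HOXB4 1 to 3, against 11.53, 11.60 and 11.57 in controls 1 to 3. HOXB4 1 and 3 lay above all controls and HOXB4 2 below them. The difference was 0.16 (SE 0.12; 0.27 without HOXB4 2, 0.09 without HOXB4 3) between means of 11.73 ± 0.19 in HOXB4 cells and 11.57 ± 0.04 in controls (SD, n = 3 each). Tubb5 (chromosome 17, 35833920 to 35838301), the main isotype of many proliferating cells, stood at 16.48, 16.51 and 16.50 in HOXB4 1 to 3, against 16.57, 16.65 and 16.58 in controls 1 to 3. All 3 HOXB4 values lay below all controls, by a mean of 0.11 (difference -0.11, SE 0.08; -0.06 after cyclic loess scaling). Among the 611 genes with a mean above 16, a limit set after the values were seen, 24.2% also had every HOXB4 value below every control value. Tubb6 (chromosome 18, 67390731 to 67402749), another broadly expressed isotype, stood at 13.56, 13.57 and 13.25 in HOXB4 1 to 3, against 13.40, 13.73 and 13.59 in controls 1 to 3, with overlapping groups and a difference of -0.11 (SE 0.13), or -0.20 without control 1 and -0.01 without HOXB4 3.

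Of the alpha-tubulins, Tuba1a (chromosome 15, 98949847 to 98953501), which is prominent in developing neurons, stood at 18.31, 18.09 and 18.36 in HOXB4 1 to 3, against 18.32, 18.36 and 18.32 in controls 1 to 3. Apart from the lower HOXB4 2, the arrays lay between 18.31 and 18.36, and the difference was -0.08 (SE 0.10), or 0.00 without HOXB4 2. These values are close to the highest of any feature in the table, 19.93, and whether the scale still resolves differences there was not tested. Tuba4a (chromosome 1, 75214972 to 75221261), an isotype whose encoded protein lacks the terminal tyrosine of other alpha-tubulins, stood at 9.52, 10.62 and 10.63 in HOXB4 1 to 3, against 10.52, 9.52 and 10.42 in controls 1 to 3. Here HOXB4 1 and control 2 were low, an order unlike that of Tubb3, and the difference of 0.10 (SE 0.38) became -0.08 without HOXB4 2, -0.08 without HOXB4 3 and -0.22 without control 2. The feature shared by Tuba1b and Gm5620 stood at 18.60, 18.53 and 18.61 in HOXB4 1 to 3, against 18.72, 18.68 and 18.74 in controls 1 to 3. It lay lower in every HOXB4 array, by 0.13 on average, but it does not measure Tuba1b alone. Tubg1 (chromosome 11, 101119904 to 101126423), the gamma-tubulin of the nucleating rings, stood at 13.22, 12.61 and 13.25 in HOXB4 1 to 3, against 12.69, 13.11 and 12.78 in controls 1 to 3. HOXB4 1 and 3 were highest, control 2 followed and HOXB4 2 was lowest, with a difference of 0.17 (SE 0.20), or 0.05 without HOXB4 3 and 0.38 without HOXB4 2.

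Counted over the 9 measured genes, 6 differences were above 0 and 3 below, with a median of 0.16, against 12288 above, 18414 below and a median of -0.04 over all 30702 genes. No member had all HOXB4 arrays above all controls, a state of 3.24% of all genes, and 1 member, Tubb5, had every value below, against 10.2% of all genes. Limma called 0 of the 30702 genes (0%) at a Benjamini-Hochberg adjusted p below 0.05, the smallest adjusted p being 0.605. At an unadjusted p below 0.05 there were 685 genes higher (2.23%) and 1828 lower (5.95%), while an unmoderated fit likewise called 0, with 1974 genes below that unadjusted limit. HOXB4 2 stood apart from HOXB4 1 and 3, and without it 5 of the 9 genes, Tubb3, Tubb2a, Tubb2b, Tubb4b and Tubg1, had all HOXB4 arrays above all controls, against 10.5% of all genes. Tubb5 was then still the 1 gene below, against 21.4% of all genes, and limma called 46 genes (3 higher, 43 lower). The counts of members without HOXB4 2 were added after the values were seen. HOXB4 2 was the lowest HOXB4 array in each of the 5 genes, so leaving it out raises their count by construction. Tubb3 was also picked for its difference, and several of the 5 vary together (r 0.97 for Tubb2a and Tubg1). The 5 of 9 is therefore a description only.

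**Figure D2:**
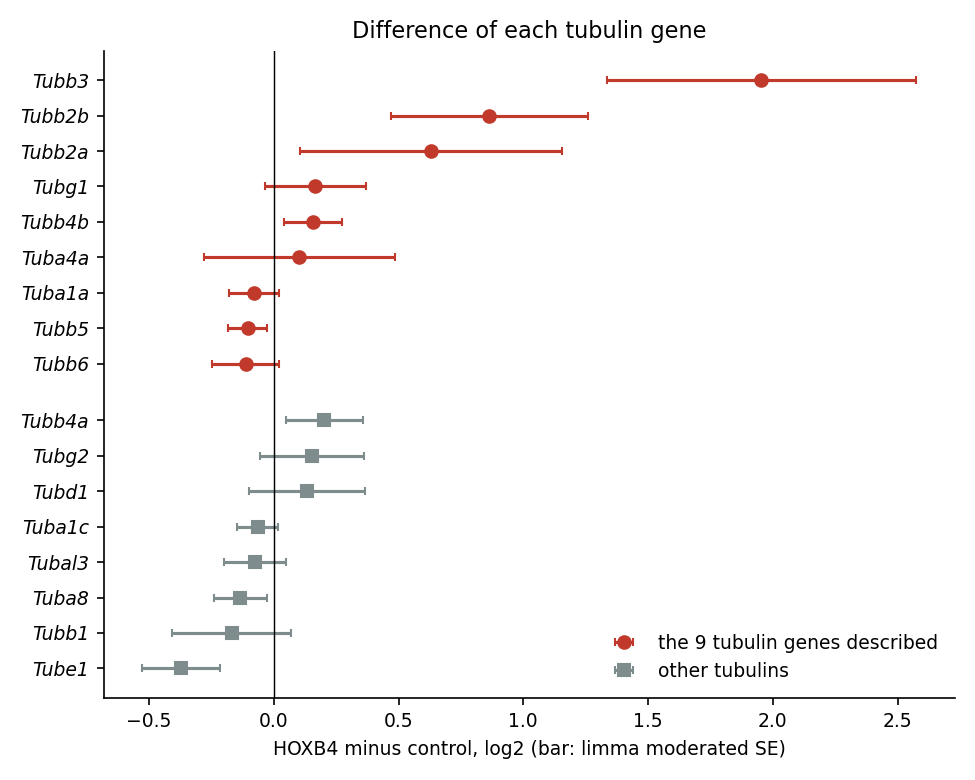
HOXB4 minus control difference on the log2 scale for the 9 measured tubulin genes (circles) and 8 other tubulins (squares), with limma's moderated SE as bars (3 arrays per group). Tubb3 lies at 1.95, Tubb2b at 0.86 and Tubb2a at 0.63, and the other 14 genes lie between -0.37 and 0.20.

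An order within the groups was held by some members and not by Tubb3 itself. In 5 of the 9, Tubb2a, Tubb2b, Tubb4b, Tuba1a and Tubg1, control 2 was the highest control and HOXB4 2 the lowest HOXB4 array, an order held by 14.2% of all genes. This order was not planned and was named with the values seen. Several of the 5 also vary together (r 0.97 for Tubb2a and Tubg1), so this count is a description only. Over the 6 arrays, Pearson's r with Tubb3 was 0.93 for Tubb2b, 0.91 for Tubb4b, 0.78 for Tubb2a and 0.73 for Tubg1. It was 0.15 for Tuba1a, -0.13 for Tuba4a, -0.37 for Tubb6 and -0.73 for Tubb5. With each value taken as its deviation from its group mean, r was 0.88 for Tubb2b, 0.91 for Tubb4b, 0.79 for Tubb2a, 0.81 for Tubg1 and 0.84 for Tuba1a, against -0.34 for Tuba4a, -0.14 for Tubb6 and -0.12 for Tubb5. Tuba1a and Tubb5 thus stood differently to Tubb3 within the groups than over all arrays. These are descriptions of 6 points. Values of this size were common: of 1818 genes above the median gene and with a range of at least 1 log2 unit, 165 (9.08%) reached an r of 0.9 with Tubb3, and Tubb2b was the gene at rank 102.

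The genes with the pattern most like Tubb3 were no tubulins. The 8 with the highest r over the 6 arrays were Mt1, a metallothionein (0.994), Med13l, a Mediator subunit (0.993), Ctsl, a lysosomal protease (0.989), Chek2, a DNA damage kinase (0.988), Plk3, a polo-like kinase (0.988), Ptgr1, a prostaglandin reductase (0.988), Rab3ip, an exchange factor for Rab8 (0.986), and Rere, a nuclear corepressor (0.984). Mt1 stood at 14.97, 13.73 and 15.38 in HOXB4 1 to 3, against 12.76, 13.23 and 13.85 in controls 1 to 3. Med13l averaged 10.56 ± 0.36 in HOXB4 cells and 9.83 ± 0.21 in controls (SD, n = 3 each). Both had HOXB4 1 and 3 highest and control 1 lowest, as Tubb3 had, and of the 8 genes Med13l was the only one without overlap between the groups.

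Neuron markers were examined next, because Tubb3 is itself used as one. Stmn2 and Ina had differences close in size to that of Tubb3, those of Nefl and Gap43 were smaller, and the other 13 measured markers lay within 0.3 of 0. Stmn2, a tubulin-binding stathmin of growing axons, stood at 12.18, 10.996 and 13.36 in HOXB4 1 to 3, against 9.09, 10.83 and 10.67 in controls 1 to 3. Its groups did not overlap, although HOXB4 2 lay just above control 2, and its difference was 1.98 (SE 0.68), or 1.39 without HOXB4 3 and 1.43 without control 1. Ina, which encodes the neurofilament protein alpha-internexin, stood at 9.20, 7.44 and 10.29 in HOXB4 1 to 3, against 6.56, 7.66 and 6.79 in controls 1 to 3. HOXB4 2 lay below control 2, and the difference was 1.97 (SE 0.69), or 1.32 without HOXB4 3. Nefl, the neurofilament light chain gene, stood at 10.96, 10.07 and 10.53 in HOXB4 1 to 3, against 8.28, 9.88 and 9.22 in controls 1 to 3, with no overlap and a 2.63-fold higher mean in HOXB4 cells (log2 SE 0.41). Gap43, a growth cone protein gene, differed by 0.73 (SE 0.52) with overlapping groups, or by 0.33 to 1.23 with 1 array left out. Each of the 4 had an adjusted p of at least 0.605.

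**Figure D3:**
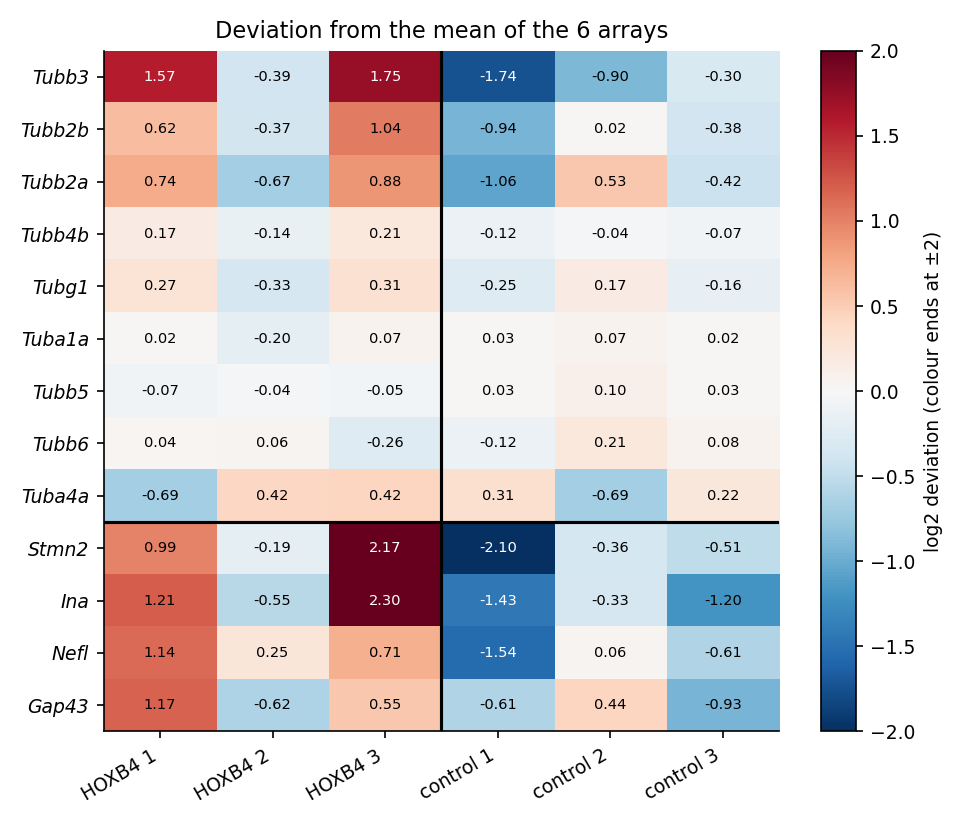
Deviation of each array from the mean of the 6 arrays, in log2 units, for the 9 measured tubulin genes (above the line) and 4 neuron cytoskeleton genes (below it), with HOXB4 arrays left and controls right. HOXB4 1 and 3 are at 1.57 and 1.75 for Tubb3 and at 0.99 and 2.17 for Stmn2, while every deviation of Tubb5 lies between -0.07 and 0.10.

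The other 13 of the 17 measured neuron markers, among them the doublecortin gene Dcx, the axonal and dendritic microtubule genes Mapt and Map2, and the neuronal RNA-binding protein genes Elavl3 and Elavl4, had differences between -0.19 and 0.28 and means between 3.12 and 5.91. The array's own background features had medians of 3.06 to 3.15. Over the 17 genes, the HOXB4 arrays all exceeded the controls in 4 (Stmn2, Nefl, Nefm and Mapt) and all lay below in 1 (Neurog2), the median difference was 0.07, and 3 were higher and 0 lower at an unadjusted p below 0.05. Of all genes, 3.24% lay above and 10.2% below without overlap, and 2.23% were higher and 5.95% lower at that p. The list mean was 5.86, 5.57 and 6.06 in HOXB4 1 to 3, against 5.37, 5.58 and 5.44 in controls 1 to 3. Neural progenitor and crest markers, 17 measured, had a median difference of -0.02, with 0 genes higher and 0 lower at an unadjusted p below 0.05. Of the 17, 7 had a mean above the median gene (5.17). The largest differences among these were those of Ngfr (-0.36, mean 6.05), Otx2 (0.24, mean 5.67), Msi1 (-0.20, mean 6.57) and Nes (0.09, mean 7.01), all with overlapping groups. Sox1 and Pax6 lay between 4.24 and 5.31 in all arrays, and Sox10 between 4.69 and 5.01.

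Of the genes whose products fold tubulin, more lay below 0 than above, as over all genes. Newly made tubulin passes through prefoldin and the chaperonin TRiC before cofactors join alpha to beta. Of 21 measured folding genes, 14 differences lay below 0, the median was -0.09, and 7 genes had every HOXB4 value below every control value while 1 had every value above. Over all genes these states held 10.2% below and 3.24% above. At an unadjusted p below 0.05, 5 were lower and 1 higher, against 5.95% lower and 2.23% higher of all genes, and 0 passed after adjustment. The TRiC subunit gene Cct5 stood at 11.86, 12.31 and 11.99 in HOXB4 1 to 3, against 12.74, 12.36 and 12.36 in controls 1 to 3, a difference of -0.43 (SE 0.16). The prefoldin gene Pfdn5 differed by -0.44 (SE 0.12). Tbce, a cofactor acting on alpha-tubulin, was the 1 gene without overlap on the higher side, at 9.27, 9.03 and 9.14 in HOXB4 1 to 3, against 8.48, 8.74 and 8.93 in controls 1 to 3. Ttc5, which takes part in the decay of tubulin mRNA when free tubulin is plentiful, differed by 0.43 (SE 0.29), and its leave-one-out values ran from 0.18 to 0.76.

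In the gamma-tubulin ring complex and its anchors, 10 genes were measured, with 4 differences above 0, 6 below and a median of -0.03. Nedd1, which targets the ring to the mitotic spindle, differed by -0.40 (SE 0.13), and Tubgcp4, a ring subunit, by -0.28 (SE 0.10). Both had every HOXB4 value below every control value and were the 2 genes of this list lower at an unadjusted p below 0.05, states of 10.2% and 5.95% of all genes. Tubgcp3, a ring subunit, differed by 0.31 (SE 0.32), with leave-one-out values from -0.04 to 0.53, and Akap9, an anchor, by 0.29 (SE 0.16; 0.18 to 0.41), both with overlap. Among 21 tubulin-modifying enzymes, 16 differences lay below 0 with a median of -0.04, and 2 were lower and 0 higher at that level, against 5.95% and 2.23% of all genes. Hdac6, a tubulin deacetylase, differed by 0.68 (SE 0.31), with HOXB4 2 at 7.16 below 2 of the 3 controls, and Ttll12, a tubulin ligase family member, by -0.60 (SE 0.17), with no overlap. Vash2, a tubulin carboxypeptidase, differed by -0.24 (SE 0.10) and Tpgs1, of the polyglutamylase complex, by -0.21 (SE 0.14; -0.31 to -0.06 with 1 array left out).

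Proteins that bind microtubules split evenly. Of 27 measured genes, 14 differences lay above 0 and 13 below, with a median of 0.01 and 0 genes at an unadjusted p below 0.05 in either direction. Map1b, a microtubule-associated protein of growing axons, stood at 10.94, 9.67 and 10.93 in HOXB4 1 to 3, against 9.84, 9.98 and 9.81 in controls 1 to 3. HOXB4 2 lay below every control, and the difference was 0.64 (SE 0.33). Without HOXB4 2 it was 1.06 and limma called it (adjusted p = 0.047), 1 of 3 genes called higher and 43 called lower in that fit. Its adjusted p was 0.639 with all arrays. Dclk1, a doublecortin-like kinase, differed by -0.60 (SE 0.29), Kif2a, a depolymerising kinesin, by 0.38 (SE 0.18), and Stmn1, a stathmin of dividing cells, by 0.35 (SE 0.22). With 1 array left out they ran from -0.91 to -0.39, from 0.23 to 0.51 and from 0.20 to 0.57 in that order.

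The other tubulins showed no difference of the size seen for Tubb3. Of 10 listed, 8 were measured, since Tuba3a and Tuba3b share their features. Their differences ran from -0.37 to 0.20 with a median of -0.07, and 0 had groups without overlap. Tube1, an epsilon-tubulin of centrioles, stood at 8.08, 8.23 and 7.84 in HOXB4 1 to 3, against 8.47, 8.17 and 8.62 in controls 1 to 3, a difference of -0.37 (SE 0.16). Tubg2, the second gamma-tubulin gene, followed the order of Tubg1, at 6.68, 6.15 and 6.83 in HOXB4 1 to 3, against 6.20, 6.68 and 6.31 in controls 1 to 3. Tubd1, a delta-tubulin, differed by 0.13 (SE 0.23), Tubb4a by 0.20 (SE 0.15), Tubb1, an isotype of megakaryocytes and platelets, by -0.17 (SE 0.24), Tuba8 by -0.13 (SE 0.11) and Tubal3 by -0.07 (SE 0.12). The signs of Tubd1, Tubb1 and Tubal3 turned with 1 array left out (-0.03, 0.00 and 0.01). Tuba1c differed by -0.06 (SE 0.08) in its brighter feature, whose identifier places it on chromosome 13 while the gene lies on chromosome 15. Its other feature, placed on chromosome 15, differed by 0.02 (SE 0.10, fit over all features), with overlapping groups.

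The measured genes beside Tubb3 on chromosome 8 had differences between -0.13 and 0.21. Mc1r, the melanocortin receptor gene that ends 808 bases before Tubb3, stood at 4.02, 3.98 and 4.04 in HOXB4 1 to 3, against 4.09, 4.01 and 4.33 in controls 1 to 3 (difference -0.13, SE 0.11). Tcf25 beyond Mc1r and Def8 after Tubb3 differed by 0.21 (SE 0.21) and 0.14 (SE 0.16), with overlapping groups, and both signs turned with 1 array left out (lowest -0.02 and -0.03). The next annotated gene, Gm39275, had no feature of its own.

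Markers of the cell types that the sort could hold varied between arrays too. The endothelial list, 16 genes, averaged 10.74, 8.12 and 9.79 in HOXB4 1 to 3, against 8.34, 9.86 and 8.35 in controls 1 to 3. HOXB4 1, HOXB4 3 and control 2 were its highest arrays, as they were for Tubb2a, Tubb2b and Tubg1, whereas Tubb3 in control 2 lay below control 3. All 16 endothelial differences lay above 0 (0.06 to 1.75, median 0.50), against 12288 of all 30702 genes. The groups overlapped in each of the 16, and 0 were higher or lower at an unadjusted p below 0.05 (limma). The cardiac and lateral mesoderm list, 11 genes, averaged 7.35, 8.27 and 7.26 in HOXB4 1 to 3, against 8.75, 8.40 and 8.53 in controls 1 to 3. HOXB4 1 and 3 were its lowest arrays. Of its 11 differences, 9 lay below 0, near it for Nkx2-5 (-0.12) and Tbx5 (-0.13), and 2 above, Mef2c (0.85) and Tnnt2 (0.26). The 4 largest differences were of transcription factor genes. Hand1 stood at 8.98, 12.83 and 8.61 in HOXB4 1 to 3, against 13.79, 12.82 and 13.46 in controls 1 to 3, the largest absolute difference of all genes (-3.22, SE 1.06), with HOXB4 2 level with control 2. Foxf1 differed by -2.16 (SE 0.69), Tbx20 by -1.89 (SE 0.48) and Hand2 by -1.21 (SE 0.31). These were the 3 of the 11 genes that lay lower without overlap, against 10.2% of all genes. Limma called none of the 4 with all arrays (adjusted p = 0.605 for each). Without HOXB4 2 it called Hand1 (-4.56, adjusted p = 0.0143), Foxf1 (-3.04, adjusted p = 0.0131) and Tbx20 (-2.44, adjusted p = 0.0444). Over the 6 arrays, r with Tubb3 was -0.95 for Hand1 and -0.98 for Tbx20. The 13 mitotic genes had list means between 12.41 and 12.49 in all arrays. Pluripotency markers averaged 6.58, 7.57 and 7.27 in HOXB4 1 to 3, against 6.98, 6.21 and 7.05 in controls 1 to 3. Endoderm markers lay between 5.22 and 5.63, and erythroid and blood markers between 6.71 and 7.34, on average in every array. Differences of single genes ran from -0.67 to 0.76 in the endoderm list and from -1.15 to 0.71 in the blood list. The part of any marker list in the tubulin values was not tested. In bulk RNA of sorted cells, more cells that express a gene and more RNA per cell cannot be told apart.

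**Figure D4:**
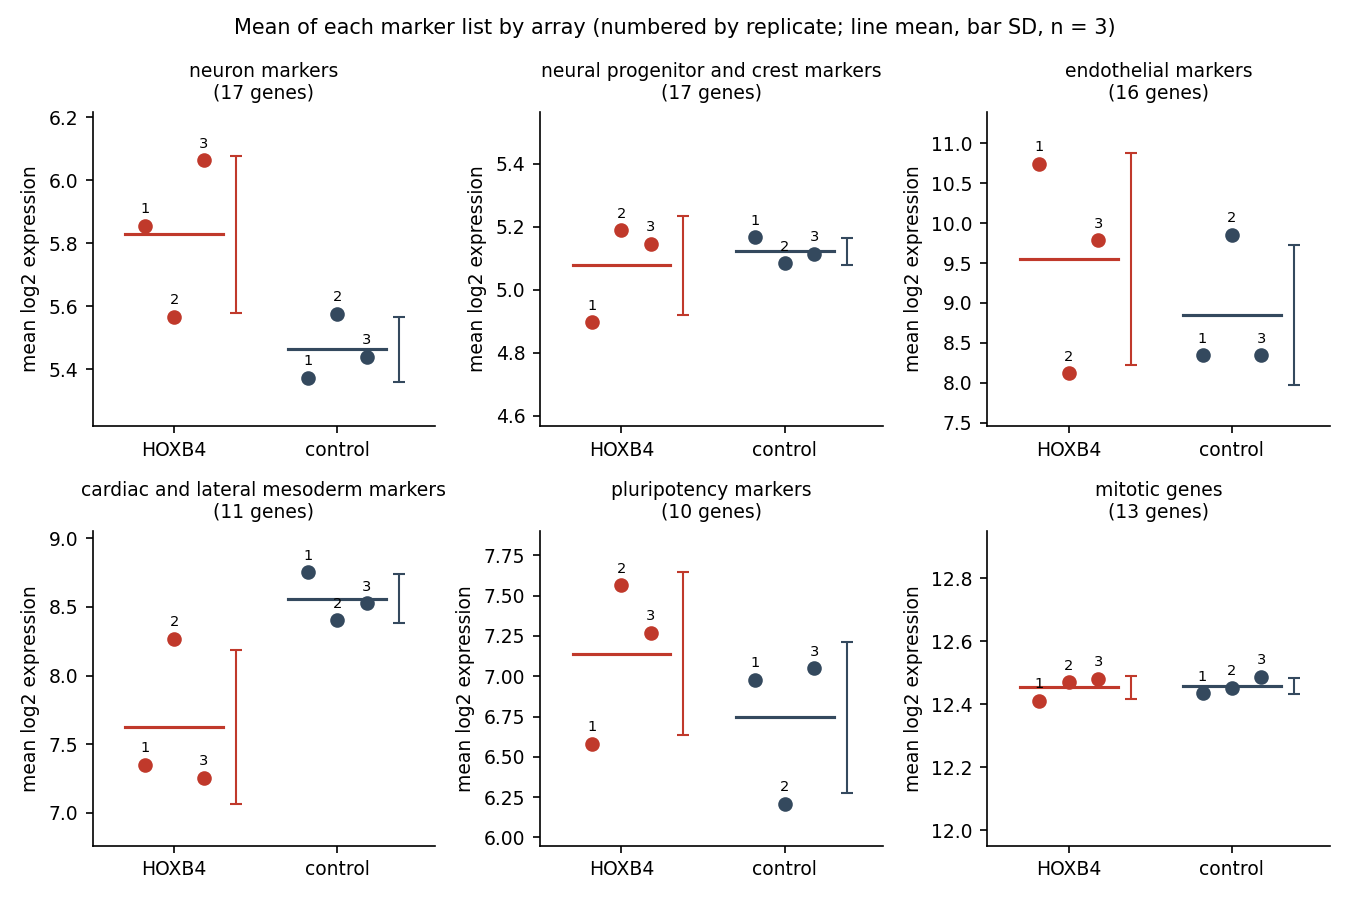
Mean log2 expression of 6 marker lists in HOXB4 arrays (left, red) and control arrays (right, dark), numbered by replicate, with the mean as a line and the SD as a bar (n = 3). Vertical axes span at least 1 log2 unit; endothelial markers are highest in HOXB4 1 (10.74), control 2 (9.86) and HOXB4 3 (9.79), and cardiac markers lowest in HOXB4 3 (7.26) and HOXB4 1 (7.35).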

How the data were processed

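Day 4 cells of 3 HOXB4 and 3 control samples were hybridised to 1 array each. The authors deposited 1 log2 expression value per feature and array. Per the submitters' processing notes they used Affymetrix Expression Console and RMA, which by design equalises arrays and so can remove a shift common to most genes; versions and settings were not given in the sources used here. Of 65956 features that are not controls, 31258 named 1 gene after symbols were brought up to date with a RefSeq table (GRCm38.p6), 1492 several and 33206 none. The brightest feature stood for each of 30702 genes. Array medians of genes were 5.10 to 5.22, and the 6 arrays limit the precision.

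Groups came from the titles. HOXB4 minus control was fitted over all genes with lmFit and eBayes of limma 3.58.1, run in R 4.3.3; tests were two-sided, and a call needed a Benjamini-Hochberg adjusted p under 0.05; no low-level filter was used. Of these steps, only the limma fit was tested on simulated data, with known changes and independent noise. That checks the estimated size of a change, and no simulated array stood apart as HOXB4 2 did. Tables were made with pandas 2.3.3 and numpy 2.4.6 under Python 3.11.15, and plots with matplotlib 3.10.9. Members, gene lists and motifs were chosen with earlier results of these data known. All members, other tubulins and the annotated neighbours of Tubb3 were named. Genes named by size from a further list were at most 4, those with the largest absolute difference above the median gene; genes like Tubb3 were the 8 with the highest r, predicted genes left out. Genes of the neuron and cardiac lists were named by size beside the list means. Genes of the endothelial, mitotic, pluripotency, endoderm and blood lists were not. Other genes (such as Dcx, Sox1, Sox10 and Kdr) were named for their role. Alternatives were a replicate block, each array left out, cyclic loess, median centring, array weights, a filter on dim features, feature means, all features, another prior and no moderation. Counts without HOXB4 2 and of the order within the groups were added after the data were seen.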

Additional observations from a re-analysis of the deposited data

How the results depend on the processing

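The Tubb3 difference stayed above 0 in all 15 alternatives, between 1.57 and 2.63, and so did those of Tubb2b (0.56 to 1.26), Tubb2a (0.26 to 1.12), Tubb4b (0.09 to 0.27) and Tubg1 (0.05 to 0.38). Tubb5 (-0.12 to -0.06) and Tubb6 (-0.20 to -0.01) stayed below 0. Tuba1a turned in 1 alternative, to 0.00 without HOXB4 2, and Tuba4a in 3, each leaving out an array (lowest -0.22). Only leaving out an array, cyclic loess, median centring and array weights could change these differences. The other alternatives changed the SE or the set tested, or averaged the single feature of each member. Their unchanged differences are therefore no support. Limma called 0 genes in 14 of the 15 alternatives; leaving out arrays gave 0 to 46, with 46 without HOXB4 2. Unadjusted counts at p below 0.05 ran from 1266 to 5978, the highest over all features. That count is out of 65956 features, and the highest among the fits over genes was 4267, without HOXB4 2. Members with all HOXB4 arrays above all controls numbered 0, and 5 without HOXB4 2; the number below was 1 both times. With a replicate block 0 genes were called, 1294 were below the unadjusted limit against 2513 without it, and the Tubb3 SE was 0.54. The numbers were not taken as pairs, because the labels state no paired analysis. Same-numbered arrays deviated in opposite directions (r of deviations -0.40, -0.59 and -0.35 for numbers 1 to 3). Deviations within a group sum to 0, so these r values depend on one another. They cannot show whether arrays with the same number share an experiment. With 3 arrays per group, differences of the size of Tubb2a lie within the spread between arrays. Signal near the top of the scale and probes shared between isotypes or with pseudogenes were not tested.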

Other observations

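Tubulin pseudogenes with features of their own give a further set of values, named here after they were seen. Gm5620, a pseudogene on chromosome 9 whose symbol also stands on the Tuba1b feature, was at 16.26, 16.41 and 16.39 in HOXB4 1 to 3, against 16.81, 16.52 and 16.59 in controls 1 to 3, lower in every HOXB4 array (difference -0.28, SE 0.12). Tubb2a-ps2 was at 7.47, 6.85 and 7.85 in HOXB4 1 to 3, against 7.13, 7.33 and 6.81 in controls 1 to 3, with HOXB4 3 highest. Tubb4b-ps1 was at 13.28, 13.07 and 13.57 in HOXB4 1 to 3, against 13.23, 13.28 and 13.11 in controls 1 to 3. Whether these features read the pseudogenes or the parent transcripts was not tested. The 2 features shared by Tuba3a and Tuba3b, testis isotypes, differed by -0.18 (SE 0.12) and -0.39 (SE 0.19), with overlapping groups.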
